A study of Sparus aurata with 6 samples.

Results

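In the mid-anterior intestine of gilthead seabream (Sparus aurata), all kept probes of 202 transcripts differed strongly between pools of fish on the same diet. A transcript is here an expressed sequence tag (EST, a read of complementary DNA) or a contig assembled from such reads, and the oligonucleotide array measured it with several probes. A probe was kept when 4 or more of the 6 arrays showed it well above background. A transcript was chosen when it had at least 2 kept probes and each of them spanned 2 log2 units or more between the highest and the lowest of the 3 pools of 1 diet, that diet being the same for all its probes. The chosen transcripts were 202 of the 5649 with 2 or more kept probes (3.58%), out of 15156 transcripts on the array. The measured ranges chose them, so that these ranges are a description and were not tested.

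The experimental diet carried, at 0.5%, a microencapsulated additive of synthetic essential oils (EOs) of garlic, carvacrol and thymol, and the control diet was the same basal feed without EOs. Fish of both diets were juveniles that had been treated with hydrogen peroxide and formaldehyde after transport, and they were sampled at day 65 of feeding. RNA was extracted fish by fish and joined into 3 pools of 4 fish per diet, and each pool was hybridised to 1 array. Each diet was fed in 3 tanks, and the sources used here do not say whether the fish of 1 pool shared a tank, so that fish, tank and array cannot be told apart within a pool.

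The mid-anterior intestine of teleost fish takes up nutrients through its enterocytes, is covered by mucus from goblet cells, and holds immune cells of the gut-associated lymphoid tissue in its mucosa. A pool carries the average of its fish, so that the spread between pools of 1 diet is what remains of the variation between fish after this averaging, plus that of the tanks and of the array. In RNA from a whole tissue section, fewer cells of a type and less RNA per cell cannot be told apart. The files used here name the probes by EST or contig only, and 0 of these names were found in the gene annotation of assembly fSpaAur1.1. No gene name, function or cell type is therefore given to any transcript, and the tissue label could not be checked against marker genes. Names are those of the array, without the ending .F.ab1 that it adds to single ESTs.

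Of the 43803 spots other than controls, 78.0, 89.3 and 88.1% were well above background in EOs pools 1, 2 and 3, and 77.5, 78.1 and 80.2% in control pools 1, 2 and 3. The intensity below which the dimmest 10% of spots lay was 12.5, 24.6 and 16.8 in the EOs pools and 7.62, 15.7 and 3.81 in the control pools. Dim spots were thus brightest in pool 2 of each diet and dimmest in control pool 3. The extraction software marked 66, 58 and 340 spots as outliers in the EOs pools and 125, 132 and 97 in the control pools, and these were left out. No spot was saturated, the 6 arrays lay on 6 slides, and their scans shared 1 day. Below, a level is the log2 intensity of a probe minus that of the array's 75th percentile, averaged over the kept probes of a transcript. A range is the smallest range that any of its probes showed, on the quantile-normalized log2 scale by which the transcripts were chosen.

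The 202 transcripts were measured by 531 kept probes of the 613 designed for them, with 2 kept probes in 79 transcripts, 3 in 119 and 4 in 4. The range reached the threshold among the EOs pools alone in 72 transcripts, among the control pools alone in 98 and in both diets in 32. Just inside the threshold lay Contig1244 and cDN02P0002H18, both with a range of 2.01, and just outside it lay Contig1055 (2.00, rounded up) and cDN08P0002D05 (1.98). A further 469 transcripts had at least 1 probe past the threshold without meeting the rule. Most of the chosen transcripts were dim. When the 5649 transcripts were cut by their mean level into 4 bins of equal size, the chosen ones numbered 110, 53, 20 and 19 in the bins in order of rising level, or 7.78, 3.75, 1.42 and 1.35% of each bin. All kept probes were well above background on all 6 arrays in 89 of the 202 transcripts. Of the member probes 63.5% were, against 90.9% of all kept probes.

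Probes of 1 transcript are separate oligonucleotides on the same array, and the rule asked each of them for a wide range but not for the same pool at its ends. In 126 of the 202 transcripts (62.4%) all kept probes had the same highest and the same lowest pool. A wide range in every probe makes such agreement more likely, so that this share describes the chosen transcripts and was not set against the others. The highest pool was shared in 173 chosen transcripts and the lowest in 139. In 16 transcripts a pool that was highest for one probe was lowest for another, as in SCT763_F08_T3_JP1_3_F8_054.ab1, whose levels averaged over 2 probes were −3.12, −2.94 and −3.33 in the EOs pools although each probe spanned at least 2.80. Among the 89 transcripts that were well above background throughout, 66 shared both ends and 2 had such opposite probes. Where a probe was printed in several spots, the spots of 1 array mostly lay close together, though less so for member probes. The median SD between spots was 0.100 on the log2 scale for 104 member probes with 2 or more spots and 0.0835 for all kept probes. Its 90th percentile was 0.524 and 0.310, and its 95th percentile 1.07 and 0.550.

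The chosen transcripts fell into few patterns. Each of the 170 transcripts with a wide range in 1 diet was assigned to the pool of that diet that lay farthest from the middle pool, with its probes averaged on the quantile-normalized scale. In 33 of them EOs pool 3 stood above the other EOs pools and in 18 EOs pool 2 did. Control pool 2 stood above the other control pools in 40, and control pool 1 stood below them in 29. These 4 patterns took up 120 of the 170 transcripts and the 8 others 50. Of the 72 transcripts wide among the EOs pools alone, EOs pool 3 was the high one in 45.8% and EOs pool 2 in 25.0%. Of all 5649 transcripts, whatever their range, these pools stood apart from the other EOs pools in this way in 18.5 and 15.1%. Of the 98 transcripts wide among the control pools alone, control pool 2 was the high one in 40.8% and control pool 1 the low one in 29.6%, and of all transcripts in 11.8 and 8.27%. The probes of 11 transcripts of the 170 were opposite, and their pattern rests on the average only.

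**Figure D1:**
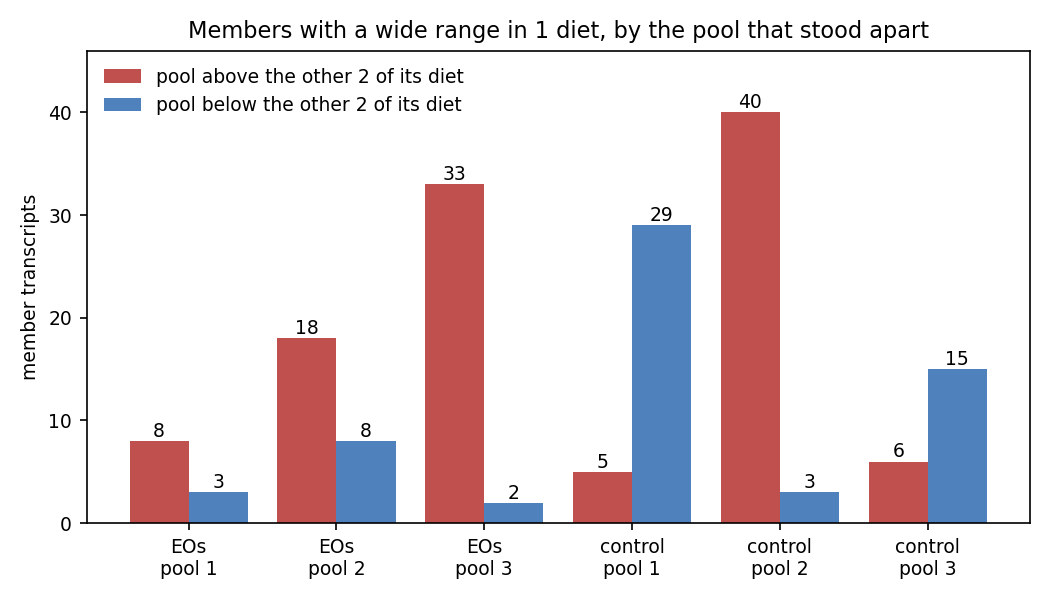
Number of transcripts with a wide range in 1 diet (y axis), by the pool of that diet that lay farthest from the middle pool (x axis), with red bars for pools above and blue bars for pools below the others. The tallest bars are control pool 2 high (40), EOs pool 3 high (33), control pool 1 low (29) and EOs pool 2 high (18).

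The widest ranges belonged to transcripts that were low in control pool 1. In all 29 transcripts of this pattern control pool 1 was also lower than every EOs pool, by a median of 4.06 log2 units as measured. In 15 of the 29 at least 1 probe was not well above background in control pool 1, so that the size of these gaps is uncertain. In the other 14 the gap to the nearest of the other 5 pools had a median of 2.91 and lay between 0.45 and 8.51. The other 5 pools spanned a median of 1.48 between them, and in 25 of the 29 transcripts the measured gap was wider than that span. The median level of the pattern was 0.68, 1.21 and 0.60 in the EOs pools and −5.07, 0.36 and 0.32 in the control pools. In order of rising level, 6, 6, 6 and 11 of the 29 belonged to the 4 bins, so that the pattern held dim and bright transcripts.

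The transcript cDN01P0006H12 led the list with a range of 8.41 among the control pools. Its level was 6.88, 6.90 and 6.46 in EOs pools 1, 2 and 3, against −2.30, 6.21 and 6.36 in control pools 1, 2 and 3. Control pool 1 lay 365-fold under the nearest of the other pools, while those 5 pools spanned 0.69 log2 units. Of its 4 designed probes 3 were kept, the other being well above background on fewer than 4 arrays. One of the kept probes was printed in 15 spots. Their median intensity was 252933, 218888 and 200893 in the EOs pools and 357.0, 154389 and 133504 in the control pools. The SD between the spots used was 0.136 on the log2 scale in control pool 1 and between 0.0533 and 0.183 in the others. In EOs pool 3, 8 of the 15 spots were used, since the rest were marked as outliers, and the only spot of another probe was left out there for the same reason. The 3 kept probes were well above background in every pool where they had a value, also in control pool 1.

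Contig3580 showed the same pattern, with levels of 2.88, 3.62 and 2.85 in the EOs pools and −3.87, 2.85 and 4.00 in the control pools. Its 3 probes were well above background throughout, and control pool 1 lay 105-fold under the nearest pool. A transcript with a still lower level in control pool 1 was Seabream_2006-01-03-CL3704Contig1, at 3.88, 3.44 and 3.01 in the EOs pools and −6.85, 2.74 and 2.57 in the control pools. Here 3 of the 4 designed probes were kept. Only 1 of these 3 was well above background in control pool 1, so that the level there is close to the limit of the measurement. Over the whole pattern, 60.0% of the 85 probes were well above background in control pool 1 and 94.1 to 100% in each other pool, and 9 of the 29 transcripts had no such probe in control pool 1. Of the 29 transcripts, 13 had all probes well above background in all pools.

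The next pattern comprised 33 transcripts that were high in EOs pool 3. That pool was higher than the 5 others in 33 of 33, by a median of 2.26 and at most 3.70 log2 units over the nearest. The other 5 pools spanned a median of 1.10, and the gap exceeded that span in 28 transcripts. The pattern was dim, with a median level of −3.94, −3.87 and −1.58 in the EOs pools and −4.01, −4.03 and −4.37 in the control pools, and none of its transcripts lay in the brightest bin. In 24 of the 33, the highest control pool was control pool 1. That pool was the highest control pool in 44.4% of all transcripts in which EOs pool 3 was the highest EOs pool. EOs pool 3 was also the array with the most spots marked as outliers (340), and the part of that array in the pattern was not tested.

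Contig3719 led this pattern with a range of 5.61 among the EOs pools. Its level was −2.41, −2.94 and 2.27 in EOs pools 1, 2 and 3, against −1.06, −2.02 and −2.16 in the control pools. Its 3 probes were well above background in all pools, and EOs pool 3 stood 10.1-fold above control pool 1, the next highest. In Contig1435 the level was −3.64, −3.73 and 0.89 in the EOs pools and −2.11, −3.45 and −3.33 in the control pools, over 4 probes. One of these was printed in 15 spots, whose median intensity was 124.2, 65.9 and 3168 in the EOs pools and 322.2, 116.0 and 120.7 in the control pools. The SD between these spots was at most 0.240 on the log2 scale. Contig3515 was the brightest in EOs pool 3 among the 33, at −0.23, −0.99 and 3.09 in the EOs pools and 0.16, −1.33 and −1.31 in the control pools. In all 3 contigs EOs pool 3 was the highest of the 6 pools and control pool 1 the next.

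In Contig2186 and Contig1413, too, EOs pool 3 was the highest pool and control pool 1 the next. Both contigs were wide on both diets. Contig2186 had the widest range on the EOs-supplemented diet (7.37), with levels of −3.15, −3.17 and 3.80 in the EOs pools and −0.19, −2.64 and −3.41 in the control pools, where its range was 2.81. In EOs pool 3 its 3 probes lay close together, at 3.76, 3.85 and 3.78. They differed by at most 0.78 in any pool and did not share the lowest EOs pool. In Contig1413 the level was −4.19, −4.11 and 2.12 in the EOs pools and −1.47, −3.70 and −4.06 in the control pools. All probes of both contigs were well above background in every pool.

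**Figure D2:**
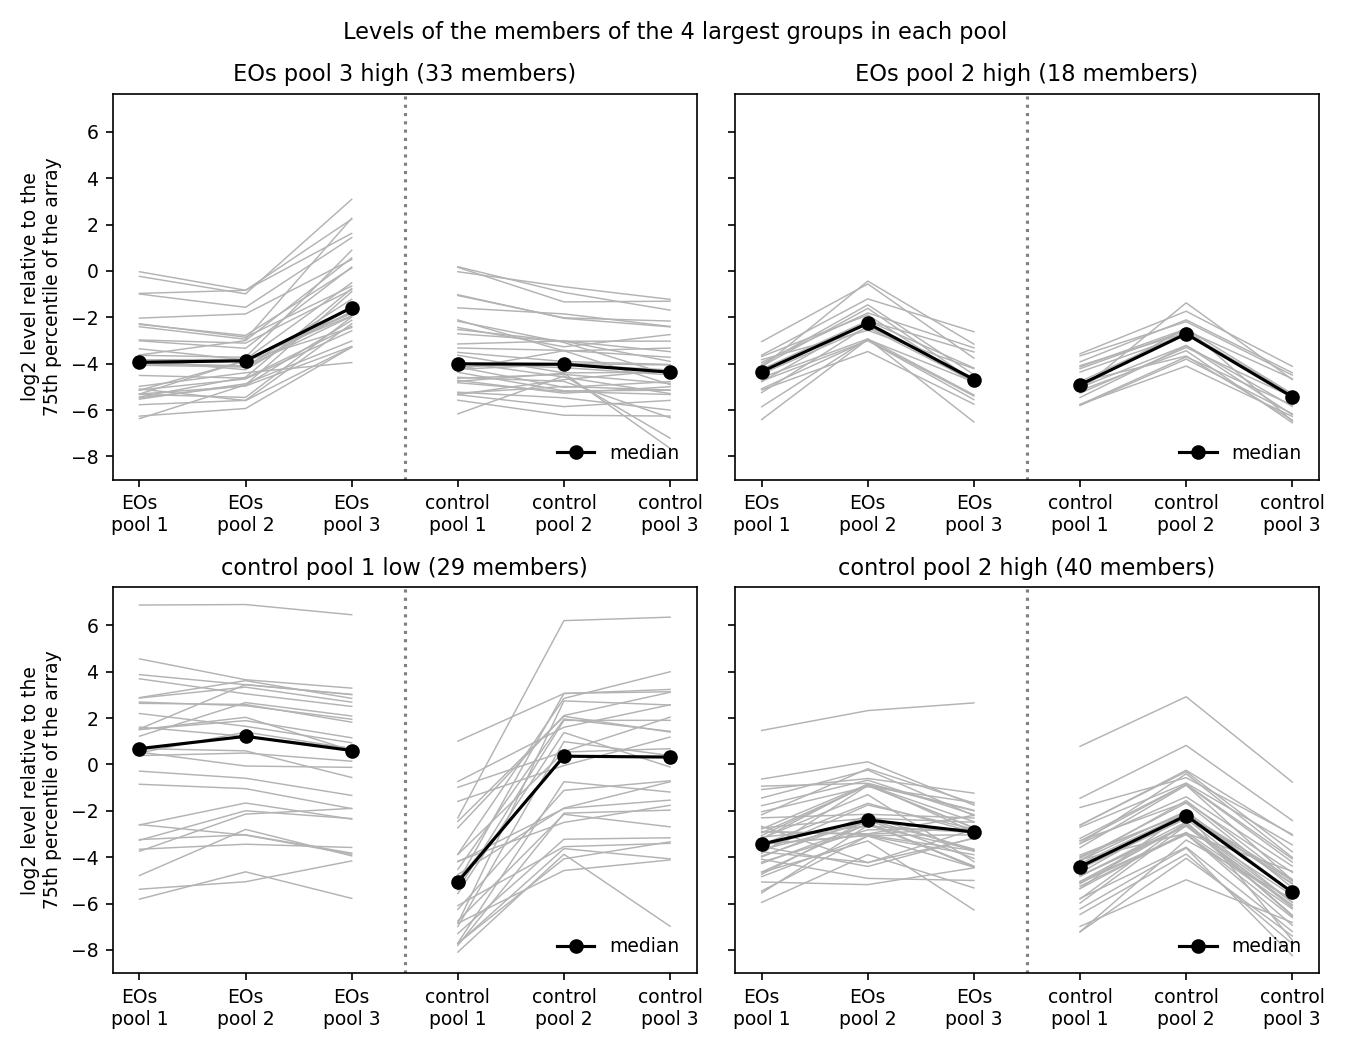
Level of each transcript (grey lines) and the median (black) in the 3 EOs pools, left of the dotted line, and the 3 control pools, right of it, for the 4 largest patterns, as log2 intensity relative to the 75th percentile of the array. Control pool 1 drops to a median of −5.07 in its pattern and EOs pool 3 rises to −1.58 in its own, while in both patterns named for a pool 2 the median peaks in pool 2 of each diet.

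In the other large patterns pool 2 was high, and the transcripts were dim. Control pool 2 stood above the other control pools in 40 transcripts, with a median level of −3.44, −2.39 and −2.92 in the EOs pools and −4.42, −2.21 and −5.52 in the control pools. Control pool 3 was the lowest control pool in 36 of the 40, and in 34.1% of all transcripts. With control pool 1, 2 or 3 left out, 29, 1 and 7 of the 40 were still chosen. EOs pool 2 was the highest EOs pool in 29 of the 40, against 49.7% of all transcripts in which control pool 2 was the highest control pool. Control pool 2 was the highest of all 6 pools in 22, with a median gap of 0.06 log2 units to the nearest pool over the 40, and the gap exceeded the span of the other 5 pools in 0. For cDN01P0002F09, which had the widest control range of this pattern (4.33), the levels were −3.46, −1.68 and −2.92 in the EOs pools and −5.36, −2.07 and −7.58 in the control pools. Its 2 kept probes, of 4 designed, were not well above background in control pool 3. Its probe with 15 spots was uneven in EOs pool 2, where the SD between spots was 1.37 on the log2 scale, and between 0.125 and 0.591 elsewhere.

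The 18 transcripts with EOs pool 2 high had a median level of −4.34, −2.26 and −4.69 in the EOs pools and −4.91, −2.71 and −5.43 in the control pools. In 18 of the 18, control pool 2 was the highest control pool, and in 15 control pool 3 was the lowest, as in 34.1% of all transcripts. EOs pool 2 was the highest of all 6 pools in 17, but its gap to the nearest pool had a median of 0.68 and exceeded the span of the others in 0 of the 18. Of all transcripts in which EOs pool 2 was the highest EOs pool, control pool 2 was the highest control pool in 40.5%. The widest EOs range of this pattern (3.92) was that of cDN05P0003N05, at −5.86, −2.93 and −6.52 in the EOs pools and −5.16, −3.44 and −6.55 in the control pools, where its range was 1.68. Contig3280, with 2 kept probes of 3 designed, was well above background in all pools. Its level was −4.16, −0.44 and −3.16 in the EOs pools and −4.14, −2.50 and −5.30 in the control pools. Of the 58 transcripts of both pool 2 patterns, 56 lay in the dimmer 2 bins. The dimmest spots of the whole array were also brightest in pool 2 of each diet and dimmest in control pool 3, as given above, and their part in these patterns was not tested.

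Control pool 3 was the low one in 15 transcripts and was the lowest of all 6 pools in 14 of them, with a median gap of 2.30 log2 units as measured and of 1.95 in the 8 whose probes were all well above background in that pool. The leading transcript was cDN11P0001O15, at 0.68, 1.07 and 1.52 in the EOs pools and 1.83, 1.47 and −5.34 in the control pools. All 3 probes were well above background in every pool, and control pool 3 lay 64.8-fold under the nearest. EOs pool 2 was assigned as low in 8 transcripts, of which 2 had opposite probes and 3 had it as the lowest of all 6 pools. These 8 were 11.1% of the 72 transcripts wide among the EOs pools alone, against 24.9% of all transcripts. They were led by cDN11P0005O20, whose range on the EOs-supplemented diet was 5.76. Its level was 4.29, −1.63 and 4.56 in the EOs pools, against 5.96, 4.15 and 6.14 in the control pools, over 4 probes. The median intensity of its 15 printed spots was 39579, 1043 and 51921 in the EOs pools and 116338, 36937 and 106642 in the control pools. The SD between those spots was 0.605 in EOs pool 2 and between 0.079 and 0.112 elsewhere, so that the low pool was also the least even, with a drop far wider than that spread. The remaining 27 transcripts of this kind were assigned as EOs pool 1 high (8, of which 4 had opposite probes), control pool 3 high (6), control pool 1 high (5), EOs pool 1 low (3), control pool 2 low (3) and EOs pool 3 low (2). Each of these patterns took up a smaller share of the transcripts wide in its diet alone than of all transcripts. The shares were 2.78 to 11.1% against 11.7 to 24.2%.

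Among the 32 transcripts that were wide on both diets, control pool 3 was the lowest control pool in 26 and control pool 2 the highest in 22. In the EOs pools, pool 2 was the highest in 19 and pool 3 the lowest in 16. Of all transcripts with 2 or more kept probes, control pool 3 was the lowest control pool in 34.1% and control pool 2 the highest in 22.8%. EOs pool 2 was the highest EOs pool in 28.0% of them and EOs pool 3 the lowest in 28.1%. The values of both diets chose these 32 transcripts, so that the counts are a description. In 12 transcripts pool 2 was highest and pool 3 lowest on both diets. The widest of the 32 besides both contigs above was Mackenzie-051508-Contig576, at −7.57, −1.70 and −1.83 in the EOs pools and −1.47, −1.46 and −8.84 in the control pools. It was not well above background in EOs pool 1 and control pool 3, and the other 4 pools lay close together. Its 15 printed spots had a median intensity of 10.8, 634.2 and 586.5 in the EOs pools and 664.3, 774.6 and 3.39 in the control pools. A low pool thus occurred on each diet for this transcript, with a range of 6.09 on the EOs-supplemented diet and 6.47 on the control diet.

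**Figure D3:**
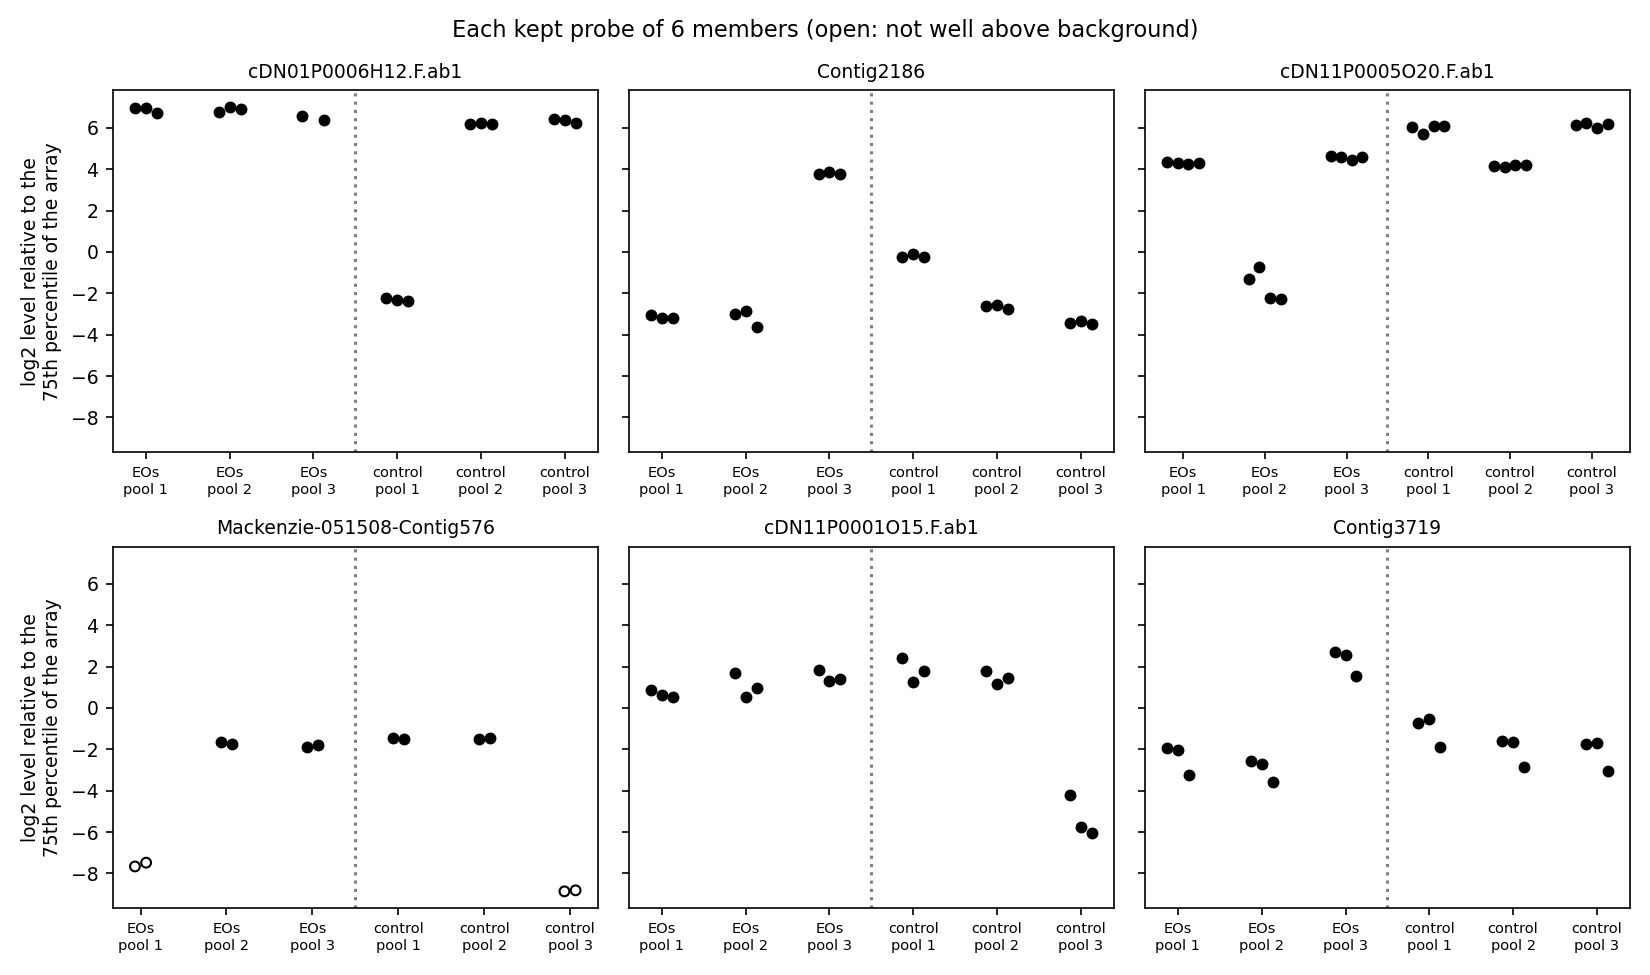
Level of every kept probe of 6 transcripts in the EOs pools, left of the dotted line, and the control pools, right of it, as log2 intensity relative to the 75th percentile of the array, with open circles for values not well above background. The probes of a transcript differ by at most 1.80 log2 units in any pool, while at least 1 pool lies farther apart. In Mackenzie-051508-Contig576 and Contig2186 a pool lies apart on each diet.

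The rule used the values of the diet in which a transcript was wide, which left the other diet as a measure of the 170 transcripts that reached the threshold in 1 diet only. By the rule itself the range in that other diet was under 2 in at least 1 probe. Its median was 1.05, against 0.30 among the EOs pools and 0.36 among the control pools for all 5649 transcripts. It was 0.96 among the control pools for the pattern high in EOs pool 3, 1.32 for the pattern high in EOs pool 2, 0.77 among the EOs pools for the pattern low in control pool 1, and 1.18 for the pattern high in control pool 2. The smallest probe range understates a spread. By level, averaged over probes, the pattern high in EOs pool 2 spanned medians of 2.59 among the EOs pools and 2.64 among the control pools. These spans were 1.76 and 3.42 for the pattern high in control pool 2. They were 2.91 and 0.80 for the pattern high in EOs pool 3, and 1.05 and 4.57 for that low in control pool 1. Contig3589 had little spread in the other diet, with a range of 2.99 among the EOs pools and 0.10 among the control pools. Most of the 202 transcripts were dimmer than the median transcript, and the part of the level in these ranges was not tested.

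**Figure D4:**
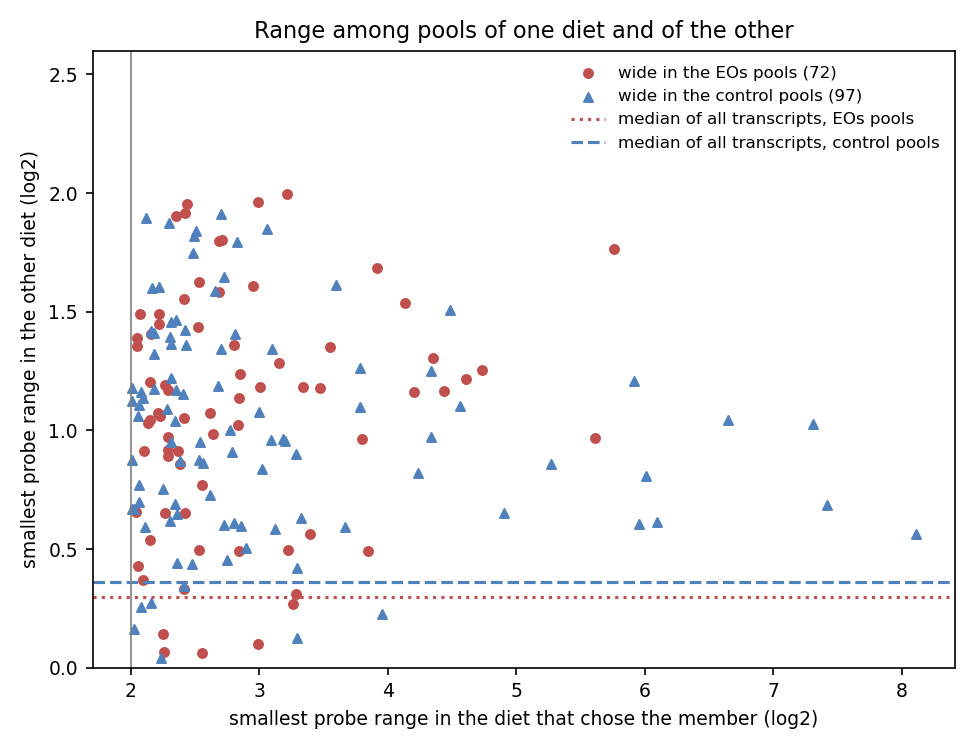
Smallest probe range of a transcript in the diet by which it was chosen (x axis, log2) against that in the other diet (y axis, log2), for transcripts wide in the EOs pools (red circles) and in the control pools (blue triangles). The transcript cDN01P0006H12 is left out because 1 of its probes has no value in EOs pool 3, and horizontal lines mark the medians of all transcripts, 0.30 in the EOs pools and 0.36 in the control pools, above which most points lie.

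Between the diets, the chosen transcripts differed by large amounts with large errors. The difference of EOs minus control had a median of 0.92 on the log2 scale over the 531 member probes and a median standard error of 0.96, against 0.12 and 0.216 over all 23350 kept probes. It was 1 or more in size in 251 member probes (47.3%) and in 7.61% of all kept probes. With limma, 3243 of the 23350 kept probes (13.9%) had an unadjusted p under 0.05, the threshold of the study's methods, with 2239 higher (9.59%) and 1004 lower (4.3%) on the EOs-supplemented diet. Among the member probes 18 of 531 (3.39%) did, in 13 transcripts, with 18 higher and 0 lower. An adjusted p under 0.05 (limma, Benjamini-Hochberg) was reached by 2 of all kept probes (0.00857%) and by 0 of the member probes, whose smallest adjusted p was 0.221. The spread between pools that chose these transcripts also enters the error of this comparison. A low share of calls is thus built into the choice. The errors given here were moderated by the eBayes step of limma, which draws the error of each probe toward that typical of all kept probes. The pools that chose the transcripts also enter the means of the diets, so that the differences follow in part from the choice.

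These counts depended on single pools. Without control pool 2, limma gave an unadjusted p under 0.05 to 119 member probes, or 22.4% against 20.4% of all kept probes. Without control pool 1 it did so for 41 (7.72% against 9.17%), without control pool 3 for 36 (6.78% against 14.3%) and without EOs pool 3 for 11 (2.07% against 9.51%). Of the member probes 89.1% were higher on the EOs-supplemented diet, against 62.4% of all kept probes. With quantile normalization these shares were 76.5 and 47.8%, the median difference was 0.54 for the member probes and −0.02 for all kept probes, and the probes called were 15 higher and 6 lower among members and 1063 higher and 1548 lower among all. With the array medians set equal, the median difference of all kept probes was −0.11. The probes called were then 16 higher and 3 lower among members and 992 higher and 1870 lower among all. The means of the diets hold the pools that chose the transcripts. The shares, calls and differences given above for member probes therefore follow in part from the choice, as do the differences below. Whether the direction exceeds what the choice alone would give was not tested. In the pattern high in control pool 2 all 40 transcripts had a higher mean on the EOs-supplemented diet, by a median of 1.05, with 1 of 99 probes called. In the pattern low in control pool 1, 26 of 29 had, by a median of 1.98, with 3 of 85 probes called. These probes were called as higher, as were 9.59% of all kept probes. In the pattern high in control pool 2 the median level was −2.21 in that pool, against −4.42 and −5.52 in control pools 1 and 3. In the EOs pools it was −3.44, −2.39 and −2.92, so that control pools 1 and 3 lay lowest. The transcript cDN01P0006H12 differed by 3.39 between the diets (adjusted p of 0.54 to 0.59 over its probes in limma) and by 0.52 without control pool 1.

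**Figure D5:**
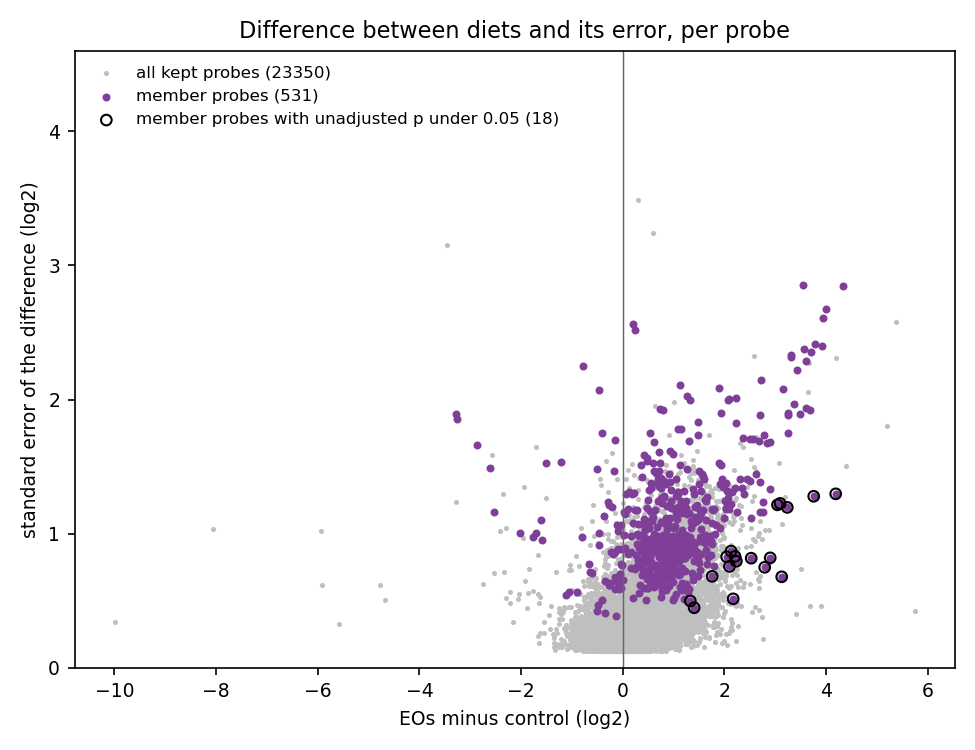
Difference of EOs minus control (x axis, log2) and its standard error as moderated by limma (y axis, log2) for all 23350 kept probes (grey) and the 531 member probes (purple), with black rings on the 18 member probes whose unadjusted p in limma was under 0.05. The member probes lie above most grey points, with a median standard error of 0.96 against 0.216, and mostly right of 0.

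In 3 of the 202 transcripts every kept probe had an unadjusted p under 0.05 in limma, and all 3 were higher on the EOs-supplemented diet. These are 1.49% of the chosen transcripts, while of all 5649 transcripts 321 (5.68%) were called in every kept probe, 211 as higher (3.74%) and 110 as lower (1.95%). The EST cDN10P0005C10 had a level of −4.67, −0.83 and −0.34 in the EOs pools and −6.13, −4.47 and −7.16 in the control pools. Its mean difference was 3.97 (adjusted p in limma of 0.284 to 0.305 over 2 kept probes of 3 designed). It was not well above background in control pools 1 and 3, and EOs pool 1 overlapped the control pools. The other two were picked after their values were seen. The EST cDN07P0001J19 was at −0.29, −0.59 and −1.33 in the EOs pools and −6.75, −2.15 and −2.69 in the control pools, where control pool 1 was not well above background and no pools overlapped. Its mean difference was 3.12 (adjusted p in limma of 0.327 to 0.349 over 3 probes), and 1.68 without control pool 1. Contig3589 was at 2.36, 2.44 and −0.55 in the EOs pools and −0.65, −0.56 and −1.04 in the control pools, all well above background. EOs pool 3 lay level with control pools 1 and 2, and the mean difference was 2.16 (adjusted p in limma of 0.314 to 0.354 over 3 probes). None of the 3 passed the adjustment over all kept probes, and with the methods' t-test none had an unadjusted p under 0.05 in every probe.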

How the data were processed

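RNA of 6 pools, 3 per diet, was measured on 1-colour 44 K arrays. The authors deposited the scanner output, in which each spot has an intensity that Agilent Feature Extraction 10.7.3.1 had background-subtracted and detrended, with flags, before any normalization between arrays. A second deposited table holds log2 values, which equal the log2 of each spot's intensity after background subtraction, likewise not normalized. The study's methods name 75th percentile normalization, a filter by expression and a t-test without correction.

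Control spots and spots flagged as outliers were left out. For the choice of transcripts the log2 processed intensities were quantile-normalized over the 6 arrays. For levels and the diet comparison they were set relative to the 75th percentile of the array. Spots were averaged per probe. A probe counted as well above background on an array when a share of at least 0.5 of its spots was. The diets were compared over all 23350 kept probes by limma (version 3.58.1, R 4.3.3; lmFit, then eBayes) in two-sided tests, and p was adjusted by Benjamini-Hochberg. The steps were tested on simulated data. Python 3.11.15 served for the rest (pandas 2.3.3, numpy 2.4.6, and matplotlib 3.10.9 for the plots). The number of arrays limits the precision. The limma p-values set the difference between diets against the spread between pools as moderated by eBayes.

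The transcripts named were the 12 with the widest range in each diet, of which some are printed, those next to the threshold, and others given as examples of a pattern or called in every probe, which were picked after their values were seen. The members, lists and tests were chosen with earlier results of these data known. The marker lists prepared could not be applied, since the files used here pair no gene names with the probes. Other scalings, background corrections, filters, ranges and tests, a block by pool number and leaving out each pool were tried. Normexp was run on the median signal, with an offset of 50 added before the log2. The alternatives for the median diet difference and for the spread in the other diet were added after the data were seen. The 16S rRNA sequencing was not analysed here.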

Additional observations from a re-analysis of the deposited data

How the results depend on the processing

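The number of chosen transcripts was 202. It was 278 on the 75th percentile scale (184 of them shared), 236 with the median shift, 234 with the deposited log2 values, 252 when 3 arrays sufficed for a probe and 203 with outlier spots kept. It was 90 with normexp background correction before quantile normalization (88 shared), 112 when all 6 arrays had to show a probe well above background (108 shared), 392 with a range of 1.5 and 68 with a range of 3. Normexp added an offset of 50 to each spot before the log2, which by itself narrows the log2 ranges of dim spots. The offset and the background correction therefore cannot be told apart in the results with normexp. With normexp 20 of the 29 transcripts low in control pool 1 were still chosen, 17 of the 33 high in EOs pool 3, 10 of the 40 high in control pool 2 and 3 of the 18 high in EOs pool 2. Leaving out 1 pool gave 110 to 147, with 110, 118, 120, 120 and 122 without EOs pools 3 and 2 and control pools 2, 3 and 1, where a diet is left with fewer pools to span a range. The number of transcripts whose probes shared both end pools was 107 to 126, and the median range in the other diet was 0.756 with normexp and 1.09 on the 75th percentile scale.

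Of the member probes, 18 had an unadjusted p under 0.05 in limma (3.39%, against 13.9% of all kept probes). It was 4 with the methods' t-test (0.753% against 12.9%). Under the other scalings and background corrections it was 19 to 26 (3.58 to 4.90% against 11.2 to 14.8%). Without 1 pool it was 11 to 119 (2.07 to 22.4% against 9.17 to 20.4%), and 0 member probes passed adjustment under any of these settings. Of all kept probes 3243 were called, and 2141 (without control pool 1) to 4772 (without control pool 2) when 1 pool was left out. The median difference of the member probes was 0.53 to 0.98 under the other scalings and 0.56 to 1.37 without 1 pool. The cause was not tested. Same-numbered pools deviated from the means of their diets with correlations of 0.118, 0.459 and 0.0055 across probes, so that pools of 1 number were not treated as pairs. Among the control pools, EOs pool 1 correlated best with control pool 3 (0.227) and EOs pool 3 with control pool 1 (0.299). With the pool number as a replicate block 78 member probes (14.7%) and 3979 of all kept probes (17.0%) were called.

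The difference of Mackenzie-051508-Contig576 (0.22) was −0.23 with normexp, −0.35 after quantile normalization and −0.0072 with the median shift, and −2.23 to 2.16 without 1 pool. That of Contig2186 (1.24) was −1.08 to 2.41 without 1 pool, below 0 without EOs pool 3. For 7 transcripts, 84 values under alternatives comprised 57 on the same side of the threshold and of 0, 1 newly called and 7 turned in sign. The 19 others were lost calls, all among the 36 values of the 3 transcripts called in every probe, 5 in cDN10P0005C10, 7 in cDN07P0001J19 and 7 in Contig3589. All 3 lost the call with the methods' t-test. Contig3589 lost it also with the median shift, and cDN07P0001J19 with the deposited log2 values and with the block by pool number. The other lost calls came when 1 pool was left out.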
